A study of Mus musculus with 6 samples.

Results

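The Krüppel-like factors (KLFs) are transcription factors with zinc fingers at their carboxy-terminal end, through which they bind GC-rich and CACCC sequences in gene control regions. The family is commonly divided by partner proteins: Klf3 recruits the CtBP co-repressors, Klf2, Klf4, Klf5, Klf6 and Klf7 act mostly as activators, and Klf9, Klf10 and Klf13 bind the co-repressor SIN3. In retinal neurons the family is known for its part in axon growth, which Klf4 and Klf9 restrain and Klf6 and Klf7 promote, and Klf15 is known as a repressor of photoreceptor promoters in reporter assays. Described here are 10 genes, Klf2, Klf3, Klf4, Klf5, Klf6, Klf7, Klf9, Klf10, Klf13 and Klf15, read by every probe set that the platform's annotation assigns to one of them alone. The 10 genes are part of 18193 genes on the array with a probe set of their own, and they were read by 34 of 45101 probe sets in all. Klf2, Klf10 and Klf15 were read by 1 probe set each, and the other 7 genes by several.

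The series holds 6 Affymetrix arrays of total retinal RNA from BALB/c mice, an inbred albino strain: 3 arrays are of the light damaged group and 3 of the dark adapted group. Mice of both groups spent 1 week in the dark. The light damaged group was then given white fluorescent light at 6000 lux over 6 h, which injures photoreceptors, and its retinas were taken 24 h after the damage. The labels give no age or sex, do not say whether an array holds 1 animal or a pool, and do not state that replicates came from different animals, so each p-value reflects the spread of these arrays alone, and that spread may be technical. All levels below are on the log2 scale of RMA (robust multi-array average), and a change is the light damaged mean minus the dark adapted mean on that scale. Arrays compare a probe set with itself across samples, so levels are not compared between genes. The summed marker levels below do add unlogged readings of different genes, and genes with high readings weigh most in them. Medians of the 6 arrays lay between 6.15 and 6.18, and a value below an array's lower quartile (4.98 to 5.11) is called dim.

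To show what the family's own control regions look like, the promoters of Klf6 and Klf9 are printed from RefSeq (GRCm38.p6, both on the + strand, 250 bases before to 50 after the start of the gene). Klf6 had the largest change among members with a promoter in that table, and the changes of Klf9 were near 0. Capitals mark matches to GGGCGG (the GC box) or CACCC on either strand, sites of the kind that KLFs and the related SP factors bind.
Klf6, chr13:5861239-5861538: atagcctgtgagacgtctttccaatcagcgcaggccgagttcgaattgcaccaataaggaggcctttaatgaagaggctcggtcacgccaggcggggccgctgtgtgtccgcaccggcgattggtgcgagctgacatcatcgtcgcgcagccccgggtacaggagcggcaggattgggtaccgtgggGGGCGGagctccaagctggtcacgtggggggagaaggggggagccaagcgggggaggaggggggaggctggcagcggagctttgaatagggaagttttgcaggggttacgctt
Klf9, chr19:23140976-23141275: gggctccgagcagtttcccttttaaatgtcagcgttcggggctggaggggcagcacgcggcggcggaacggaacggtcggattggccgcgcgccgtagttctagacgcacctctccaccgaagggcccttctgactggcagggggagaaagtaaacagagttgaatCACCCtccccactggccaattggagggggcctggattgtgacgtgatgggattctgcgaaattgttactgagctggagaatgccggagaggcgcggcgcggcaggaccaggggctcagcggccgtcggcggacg
The Klf6 promoter held 1 GC box and no CACCC, and the Klf9 promoter 1 CACCC and no GC box. The table matched 8 of the 10 members (Klf5 and Klf10 were not matched). Of these 8, 7 held GGGCGG and 6 held CACCC, counting overlapping matches of the motifs separately, against 35.7% and 57.5% of all 32851 promoters in the table. The 8 promoters were 58.3% to 76.7% G or C, where the median of all promoters was 52.7%. None of the 8 held TATAAA, which 13.6% of all promoters did. These matches describe letters and are not measured sites.

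Light damaged retinas carried more Klf10 RNA, and no other member passed the test. Of the 34 probe sets 1 was called, that of Klf10, against 1.02% of all 45037 probe sets tested (limma, adjusted p under 0.05; 0.913% higher and 0.104% lower). With the arrays' replicate numbers as a block, which pairs arrays of the same number, 3 were called, all higher: Klf10 and 2 of the 5 probe sets of Klf6. The background then was 4.68% of all probe sets, 3.48% higher and 1.20% lower. No member was called lower in either fit. The median change of the 34 probe sets was 0.07, and that of all probe sets was 0.0086. The light damaged values lay entirely above the dark adapted ones in 6 of the 34 (8.99% of all probe sets) and entirely below them in none (4.21% of all).

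**Figure D1:**
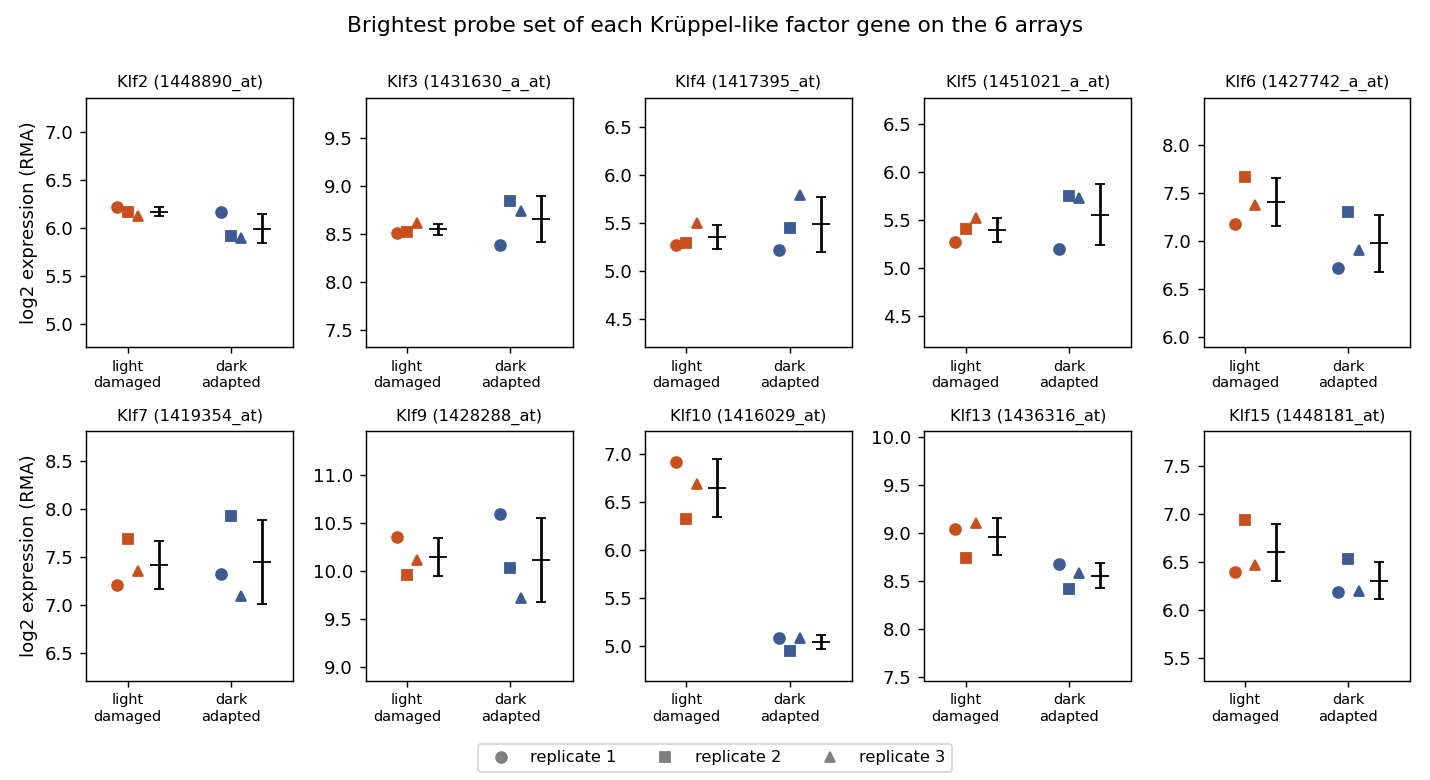
Log2 expression (RMA, y axis) of the brightest probe set of each of the 10 genes on the 3 light damaged (orange) and 3 dark adapted (blue) arrays. Shapes give the replicate number and bars the mean ± SD; every panel spans the same log2 range. The groups are apart for Klf10 and Klf13 and overlap for the other 8 genes.

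Klf10, first known as an early gene induced by TGF-beta and a repressor that works with SIN3, had the largest change of the family. Its probe set 1416029_at read 6.92, 6.33 and 6.69 in light damaged retinas, against 5.08, 4.95 and 5.08 in dark adapted retinas. Every light damaged value exceeded every dark adapted one by more than 1 log2 unit. The means were 6.65 ± 0.30 in light damaged and 5.04 ± 0.07 in dark adapted retinas (SD, n = 3 each), a 3.05-fold rise (log2 change 1.61 ± 0.17, SE; limma adjusted p = 0.00664). The 95% interval of the change ran from 1.22 to 2.00. Klf10 ranked above 99.7% of all probe sets by signed change. The same-numbered arrays differed by 1.84, 1.37 and 1.61, all higher, and the adjusted p with the replicate block was 0.00103. Of the 3 dark adapted values 2 were dim, so the size of the fold is less certain than its direction. Without light damaged replicate 3 the change was 1.59 and the call was lost (adjusted p = 0.0579), and without any other array the adjusted p stayed at or below 0.0418. Calls over all probe sets also fell without that replicate, to 127 higher and 1 lower, from 411 and 47.

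Klf6, an activator of wound and injury responses that promotes axon growth, had positive changes on all 5 of its probe sets, of different sizes, and 2 of them passed with the replicate block. With arrays centred on reference genes, which shifted the median change of all probe sets to -0.24, 1 of the 5 turned negative (1459718_x_at, -0.14). The probe set 1433508_at read 6.74, 6.46 and 7.06 in light damaged retinas, against 5.88, 5.39 and 5.91 in dark adapted retinas. The groups did not overlap. The change was 1.03 ± 0.21 (SE), or 2.04-fold, with limma adjusted p = 0.0819, and 0.00324 with the replicate block.

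The second Klf6 probe set that passed with the block, 1447448_s_at, read 5.05, 5.18 and 5.0 in light damaged retinas, against 4.41, 4.49 and 3.99 in dark adapted retinas. The groups again did not overlap, but all 3 dark adapted values and 1 light damaged value were dim. Its change was 0.78 ± 0.16 (SE), with limma adjusted p = 0.0891, and 0.0120 with the replicate block.

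The brightest Klf6 probe set, 1427742_a_at, read 7.17, 7.66 and 7.38 in light damaged retinas, against 6.72, 7.30 and 6.91 in dark adapted retinas. Here the groups overlapped, because the dark adapted array of replicate 2 lay above the light damaged array of replicate 1. Within same-numbered arrays the differences were 0.46, 0.36 and 0.47, all higher (change 0.43 ± 0.19, SE; limma adjusted p = 0.611, and 0.0558 with the replicate block). The probe set 1418280_at changed by 0.48 (adjusted p = 0.605), and 1459718_x_at, dim on all 6 arrays, by 0.12. With the 5 probe sets averaged into 1 value, Klf6 changed by 0.57 ± 0.10 (SE) and passed over genes (limma adjusted p = 0.0280).

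The changes read by 1433508_at and by the brightest Klf6 probe set, a pair picked out for their unequal size, differed by 0.60, and by 0.41, 0.70 and 0.68 within the 3 same-numbered pairs. This is a description, with no test.

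**Figure D2:**
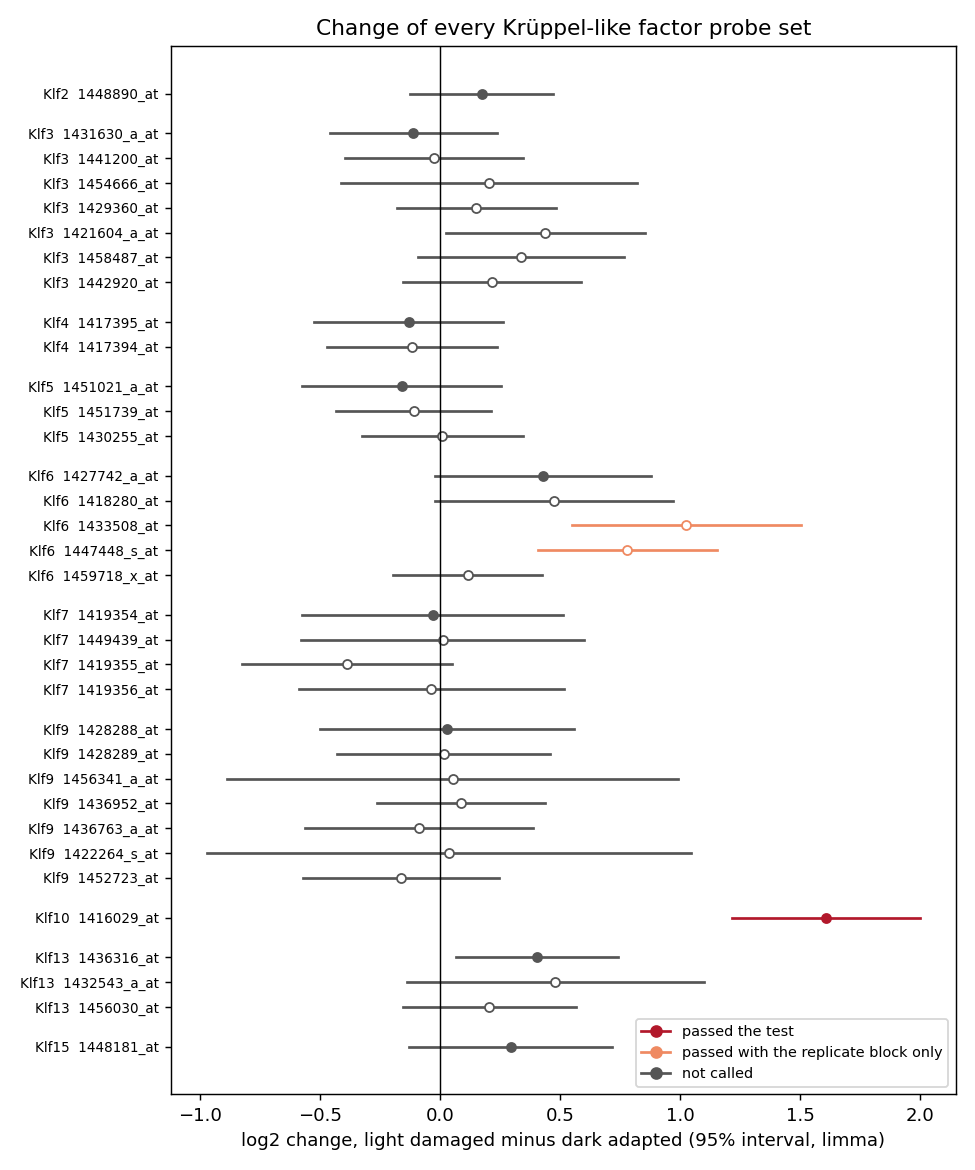
Log2 change of each of the 34 probe sets, light damaged minus dark adapted (x axis), with its 95% interval from limma; filled points are the brightest probe set of each gene and open points the others. Klf10 (1.61, red) passed the test, the Klf6 probe sets at 1.03 and 0.78 (light orange) passed with the replicate block only, and the others (grey) were not called.

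Klf13, a SIN3-binding repressor related to Klf9 that also regulates the chemokine gene Ccl5 in T cells, had positive changes on its 3 probe sets, of which 1 turned negative under the same centring (1456030_at, -0.048), and was not called. The brightest, 1436316_at, read 9.04, 8.74 and 9.10 in light damaged retinas, against 8.67, 8.42 and 8.58 in dark adapted retinas. The groups did not overlap, although the lowest light damaged value lay only just above the highest dark adapted one. The change was 0.41 ± 0.15 (SE; limma adjusted p = 0.422, and 0.0755 with the replicate block), with a 95% interval of 0.07 to 0.74. Its size depended on the scaling, at 0.27 with quantile normalization again and 0.15 with arrays centred on reference genes. The other Klf13 probe sets changed by 0.48 and 0.21, with overlapping groups.

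Klf9, which is induced by thyroid hormone and by glucocorticoids and restrains axon growth, showed changes near 0 on 7 probe sets. The brightest, 1428288_at, read 10.36, 9.96 and 10.12 in light damaged retinas, against 10.59, 10.04 and 9.73 in dark adapted retinas, so the light damaged values lay within the dark adapted range. Its change was 0.03 ± 0.23 (SE; limma adjusted p = 0.996), and the 95% interval from -0.50 to 0.56 leaves room for changes of that size in either direction. Changes of the 7 probe sets ran from -0.16 to 0.09.

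The Klf9 values varied with the replicate number, a pattern not particular to this gene. The probe set 1456341_a_at read 9.31, 8.19 and 8.30 in light damaged replicates 1, 2 and 3, against 9.35, 8.26 and 8.02 in dark adapted replicates 1, 2 and 3. The array numbered 1 lay higher by 1.06 than the mean of the other light damaged arrays, and by 1.21 in the dark adapted group. For 1422264_s_at these differences were 0.96 in light damaged and 1.43 in dark adapted retinas. These 2 probe sets were picked for having the largest standard errors of the 7. In 6 of the 7 Klf9 probe sets replicate 1 lay above the mean of the other 2 arrays in both groups, and in the remaining one, 1452723_at, below it in both. Over all 34 member probe sets replicate 1 lay above that mean in both groups in 14 and below it in both in 11. Over all probe sets, the arrays numbered 1 deviated together from their group means (correlation 0.731). With the block the standard error of 1456341_a_at was 0.11 in place of 0.40, and its change of 0.05 was still not called (adjusted p = 0.849). What the replicate number stands for is not given in the labels.

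**Figure D3:**
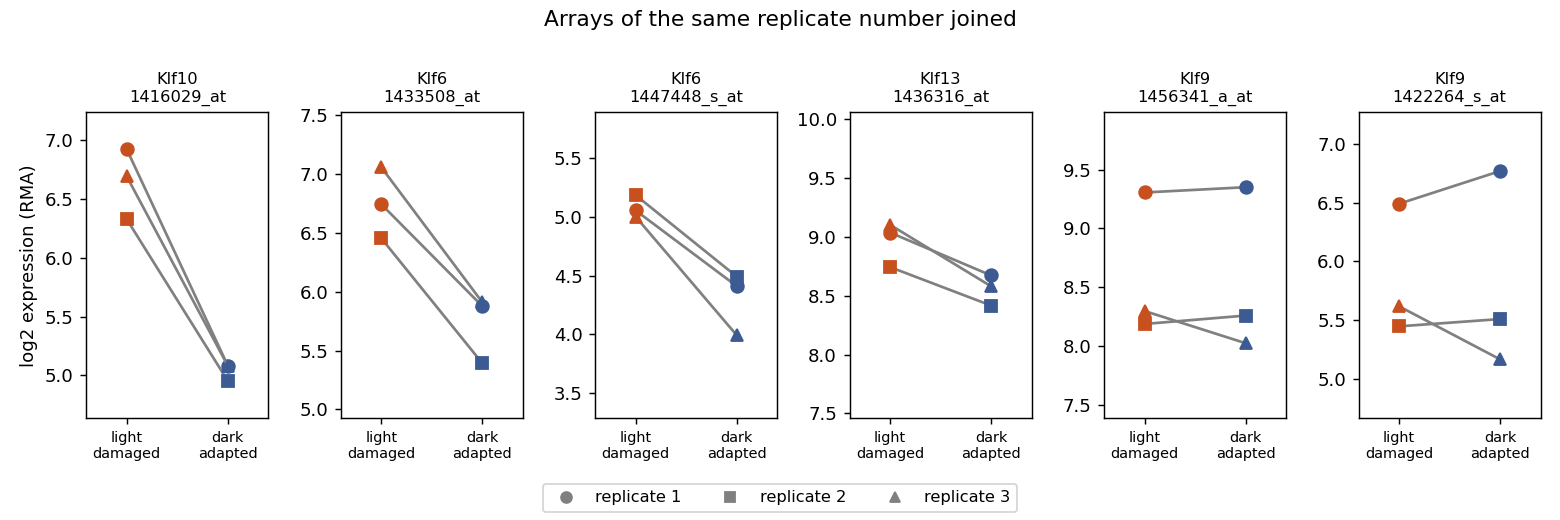
Log2 expression (RMA, y axis) of 6 probe sets on light damaged (orange) and dark adapted (blue) arrays, with arrays of the same replicate number joined by a line; every panel spans the same log2 range. All 3 lines run higher on the light damaged side for Klf10, for both Klf6 probe sets and for Klf13. The Klf9 probe sets shown are the 2 of 7 with the largest standard errors, and in both of them replicate 1 is high in both groups.

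Klf7, which like Klf6 promotes axon growth, was not called on any of its 4 probe sets. The brightest, 1419354_at, read 7.21, 7.69 and 7.36 in light damaged retinas, against 7.33, 7.93 and 7.09 in dark adapted retinas, and the light damaged values lay within the dark adapted range. Its change was -0.03 ± 0.23 (SE; 95% interval -0.57 to 0.51). The most negative change of all 34 probe sets also belonged to Klf7. It was that of 1419355_at, which read 6.62, 6.28 and 6.04 in light damaged retinas, against 6.81, 6.44 and 6.84 in dark adapted retinas. Each light damaged value was below its same-numbered dark adapted value, but the groups overlapped and the change of -0.39 ± 0.19 (SE) did not pass (limma adjusted p = 0.672, and 0.221 with the replicate block). Changes of the other Klf7 probe sets lay between -0.04 and 0.01.

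Klf4, a reprogramming factor that restrains axon growth, and Klf2, a flow-induced factor of endothelial cells and a factor of quiescent lymphocytes, were not called. Klf4 read 5.27, 5.30 and 5.50 in light damaged retinas, against 5.22, 5.45 and 5.79 in dark adapted retinas on its brightest probe set, 1417395_at. The groups overlapped and the change was -0.13 ± 0.17 (SE; 95% interval -0.52 to 0.26). Its other probe set was dim on all 6 arrays and changed by -0.12. Klf2 read 6.22, 6.17 and 6.12 in light damaged retinas, against 6.17, 5.91 and 5.90 in dark adapted retinas, with overlapping groups and a change of 0.17 ± 0.13 (SE; limma adjusted p = 0.859).

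Klf5, an activator of proliferating epithelia, read 5.27, 5.41 and 5.52 in light damaged retinas, against 5.19, 5.75 and 5.73 in dark adapted retinas on its brightest probe set, 1451021_a_at. The groups overlapped, the change was -0.16 ± 0.18 (SE), and its other probe sets changed by -0.11 and 0.01. Of the values of its probe set 1430255_at, all 6 were dim.

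Klf15, a glucocorticoid-induced regulator of metabolism, read 6.39, 6.93 and 6.47 in light damaged retinas, against 6.19, 6.52 and 6.20 in dark adapted retinas. The groups overlapped, although each light damaged array lay above the dark adapted array of its number. The change was 0.30 ± 0.18 (SE; limma adjusted p = 0.801, and 0.173 with the replicate block), with a 95% interval of -0.13 to 0.72.

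Klf3, the CtBP-binding repressor, was read by 7 probe sets whose changes ran from -0.11 to 0.44, and none was called. The brightest, 1431630_a_at, read 8.51, 8.52 and 8.62 in light damaged retinas, against 8.39, 8.85 and 8.74 in dark adapted retinas, with light damaged values inside the dark adapted range (change -0.11 ± 0.15, SE). The largest Klf3 change was that of 1421604_a_at, which read 6.06, 5.88 and 6.50 in light damaged retinas, against 5.68, 5.84 and 5.61 in dark adapted retinas. These groups did not overlap, but the change of 0.44 ± 0.18 (SE) did not pass (limma adjusted p = 0.522, and 0.206 with the replicate block). The groups of 1442920_at also did not overlap, but all 6 of its values were dim. With the 7 probe sets averaged the Klf3 change was 0.17, the opposite sign to that of its brightest probe set.

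Across all members, the 3 same-numbered differences were all higher in light damaged retinas in 13 of the 34 probe sets and all lower in 2. Over all probe sets these shares were 23.1% and 18.8%. By partner group, the median change over probe sets was 0.01 for the 5 activators (15 probe sets). It was 0.20 for the CtBP-binding Klf3 (7 probe sets) and 0.05 for the SIN3-binding genes (11 probe sets). These are not medians over genes, as probe sets of 1 gene are not independent and 7 of these 11 were of Klf9. The CtBP group is Klf3 alone, and its brightest probe set changed by -0.11. Within the SIN3-binding genes Klf10, Klf13 and Klf9 had changes of 1.61, 0.41 and 0.03 on their brightest probe sets.

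Genes related to the family were read by their brightest probe set, of which 1.46% were called over all 18193 genes, and 5.99% with the replicate block. The lists were chosen with earlier results of these data known, so the counts below describe them and are not a test. Of 13 other KLF and SP factors measured none passed (median change -0.05). The smallest p among them was that of Klf11, the closest relative of Klf10, which read 6.86, 6.78 and 6.91 in light damaged retinas, against 6.28, 6.34 and 6.40 in dark adapted retinas. The Klf11 groups did not overlap, and the change of 0.51 ± 0.11 (SE) passed only with the replicate block (limma adjusted p = 0.120, and 0.0330 with the block). With the block 1 further factor of this list, Klf12, was called lower (change -0.60, limma adjusted p = 0.742, and 0.0190 with the block). The Klf12 groups overlapped, and it was picked out once its values were known.

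Of 12 partner and turnover genes of the family, which include SIN3 and CtBP genes and the ubiquitin ligases Wwp1 and Fbxw7, none passed, and the median change was 0.15. Fbxw7, whose product marks Klf5 and other factors for degradation, had the smallest p, with a change of 0.61 ± 0.19 (SE; limma adjusted p = 0.305, and 0.0240 with the replicate block). Of 6 genes of the ERK5 and MEF2 route, which induces Klf2 and Klf4 in endothelial cells, Mef2c fell and the other 5 did not pass. Mef2c read 8.04, 7.60 and 7.98 in light damaged retinas, against 9.57, 9.18 and 9.41 in dark adapted retinas (limma adjusted p = 0.00832), and its 5 probe sets had changes of -1.57 to -0.95. Of 10 genes for hormone receptors and hormone-responsive genes, which include the glucocorticoid receptor gene Nr3c1, none passed (median -0.02). The deiodinase gene Dio2 had the smallest p there (change 0.91, limma adjusted p = 0.447). The other Dio2 probe sets changed by 0.39 and 0.31 and did not pass either.

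Of 9 genes of TGF-beta signalling, through which Klf10 was first found, Tgfb2 rose and the other 8 were not called in either direction (median change 0.10). With the replicate block Smad3, which carries the TGF-beta signal to the nucleus, was called higher too (change 0.62, limma adjusted p = 0.0880, and 0.0230 with the block). Tgfb2, a secreted ligand, read 8.70, 8.88 and 8.90 in light damaged retinas, against 7.67, 7.86 and 7.75 in dark adapted retinas. The groups lay apart, and the change was 1.06 ± 0.12 (SE; limma adjusted p = 0.00965). The other 3 Tgfb2 probe sets changed by 1.32, 0.80 and 0.68 and did not pass, and the mean of the 4 did not pass either (adjusted p = 0.0725). Without light damaged replicate 2 or 3, and with arrays centred on reference genes, the Tgfb2 call was also lost (adjusted p = 0.0608, 0.0668 and 0.108).

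Of 14 genes known as KLF targets in other cells, 2 rose and the other 12 were not called in either direction (median change 0.10). The 2 were Lgals3 (galectin 3, which Klf3 represses), with a change of 3.14 ± 0.33, and Ccnd1 (cyclin D1, which Klf4 represses and Klf5 induces), with 1.49 ± 0.17 (SE; limma adjusted p = 0.00664 and 0.00816). Both lost the call without light damaged replicate 3 (adjusted p = 0.0584 and 0.0626), as Mef2c did (adjusted p = 0.0575). Over all probe sets, the calls without that array were 127 higher and 1 lower, against 411 and 47 with every array. With the replicate block 4 of the 14 were called higher, adding S1pr1, a receptor gene that Klf2 induces in lymphocytes (change 0.54, adjusted p = 0.0260 with the block), and the cell cycle inhibitor gene Cdkn1a (0.47, 0.0449).

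Markers of retinal and other cell types were read on the same arrays, and every measured marker of rods, cones, bipolar cells and Müller glia lay above the lower quartile of each array. In this bulk tissue fewer cells of a type and less RNA per cell cannot be told apart. Of 7 cone markers 3 were lower (Opn1sw, Gnat2 and Opn1mw, changes of -1.62, -1.07 and -1.18), and each lost the call without at least 1 array (limma adjusted p up to 0.0630, 0.153 and 0.165). Of 9 rod markers none passed, or 6 lower with the replicate block, with summed levels of 14.94 to 15.26 in light damaged and 15.39 to 15.72 in dark adapted retinas. The summed cone marker level was 11.78 to 12.10 in light damaged and 12.53 to 13.15 in dark adapted retinas (log2 of the sum). Of 7 Müller glia markers 1 was higher (Vim, 1.67), and 3 were higher and 1 lower with the replicate block. The one lower was Glul (change -0.99, groups apart; limma adjusted p = 0.109, and 0.00483 with the block), and 3 of the 7 changes were negative. Müller glia markers had summed levels of 12.94 to 13.31 in light damaged and 12.84 to 13.14 in dark adapted retinas. Of 11 endothelial markers none passed, with summed levels of 11.24 to 11.28 in light damaged and 10.91 to 11.10 in dark adapted retinas. Of their changes 7 were positive and 4 negative. Kdr, which had the highest readings in that sum, changed by 0.44, and Flt1 changed by -0.24. Of 8 microglia and macrophage markers none passed, or 1 lower with the block, and 3 of 5 blood markers were dim on all arrays.

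Markers of tissues next to the retina also differed between arrays. Of 5 corneal and conjunctival markers none passed, or 1 higher with the block (Aldh3a1, change 1.29). Their summed levels did not overlap, at 8.60 to 9.28 in light damaged and 8.01 to 8.49 in dark adapted retinas. That sum includes Aldh3a1, and the keratin genes Krt12, Krt5, Krt14 and Krt15 changed by 0.31, -0.07, 0.06 and -0.09. Of 7 retinal pigment epithelium markers none passed in either fit, with summed levels of 9.88 to 10.95 in light damaged and 9.69 to 10.02 in dark adapted retinas, the highest in light damaged replicate 2. Ttr and Rdh5 of this list had changes of 0.99 and 0.82 with groups apart, but the median change of the 7 was 0.03 and 3 changes were negative. Of 6 lens markers none passed, or 1 lower with the block, with summed levels of 13.86 to 14.80 in light damaged and 13.73 to 14.87 in dark adapted retinas, the highest in replicate 3 of each group. The part of these shifts in the Klf10 and Klf6 results was not tested.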

How the data were processed

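Total retinal RNA was measured on 6 Affymetrix arrays, grouped by the sample titles. The authors made the deposited log2 values with RMA, per the submitters' processing notes. The RMA version is not given in these sources, and the log2 scale was judged from the range of 3.30 to 13.89. RMA equalises arrays, so a change in total RNA would not be seen. Values were used as deposited.

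Of 45101 probe sets, 64 controls were left out, and 45037 were tested with limma 3.58.1 (eBayes without a trend, R 4.3.3), with Benjamini-Hochberg adjustment and a threshold of 0.05. Genes came from GEO's platform annotation; 34945 probe sets had 1 gene, 932 several and 9160 none, and RefSeq held all 10 members under the same symbols. Of the members' probe sets, 10 end in _a_at, _s_at or _x_at and may match several transcripts. All member probe sets are given, by name or within a range or count; a member is summarised by its brightest probe set. Of each related list the genes that passed are named, at most 4, or else the 1 with the smallest p; genes named for the replicate block or among markers were chosen after their values were seen. Members, lists and rules were chosen with earlier results of these data known. The fit was tested on simulated data. Alternatives were the replicate block, other scalings, gene-level summaries, filters on dim or ambiguous probe sets, an eBayes trend and leaving out each array.

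Same-numbered arrays deviated together from their group means over probe sets (correlations 0.731, 0.618 and 0.432), and others lay between -0.48 and 0.00902. The main fit used no pairs. Numbers were taken as pairs in the replicate block and the same-numbered differences, on this evidence from the same values, as no label says so. The number of arrays limits the precision.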

Additional observations from a re-analysis of the deposited data

How the results depend on the processing

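The call of Klf10 held under all 8 alternatives that kept the 6 arrays (change 1.35 to 1.61); the exception among the rest was the fit without light damaged replicate 3. The count of called Klf probe sets was 1, with 3 under the replicate block, 2 (of 10 genes) with probe sets averaged per gene, and 0 to 1 with 1 array left out. Over all probe sets 458 were called, 411 higher and 47 lower, 2109 with the replicate block, 279 without probe sets that may match several transcripts, and 128 to 380 with 1 array left out. Among the 10 members, the replicate block changed no call other than those of Klf6. Quantile normalization again gave 402 higher and 167 lower, and centring on reference genes 204 and 199, with a median change of all probe sets of -0.24. Before centring, the reference genes Actb and Gusb themselves changed by 0.70 and 0.74, and Hprt, Pgk1, Sdha, Tbp and Ywhaz by 0.04, -0.11, 0.23, -0.11 and 0.27. For that centring 7 of the 8 planned reference genes had a probe set of their own. It turned the sign of 13 Klf probe sets, none of them called: for Klf2 -0.080, for Klf3 -0.10, -0.035 and -0.049, for Klf5 -0.24, for Klf6 1459718_x_at -0.14, for Klf7 -0.24, for Klf9 -0.22, -0.22, -0.24, -0.17 and -0.20, and for Klf13 1456030_at -0.048. Quantile normalization turned that of 3 Klf9 probe sets (-0.13, -0.13 and -0.060) and 1 of Klf7 (-0.039). Averaging probe sets turned Klf9 (-0.0041) and Klf3 (0.17). With 1 array left out, signs of uncalled changes turned within -0.22 to 0.0059 and -0.26 to 0.022 for Klf4, -0.089 to 0.084 for Klf5, -0.13 to 0.093 and -0.018 to 0.44 for Klf3, and -0.21 to 0.21, -0.21 to 0.23 and -0.18 to 0.20 for Klf7. For Klf9 these ranges were -0.29 to 0.51, -0.17 to 0.27, -0.16 to 0.20, -0.30 to 0.46 and -0.25 to 0.091. Where a call changed, the cause was not tested.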
